A study of Mus musculus with 18 samples.

Results

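The cytochrome P450 genes of families 1 to 4 encode haem enzymes of the endoplasmic reticulum that insert an oxygen atom into drugs, steroids, bile acids, fatty acids and other lipids. Their members were all genes whose symbol in the array annotation is Cyp, a digit from 1 to 4 and a letter, without pseudogenes and without Cyp4a10 and Cyp4a14, which the rule leaves out. These were 68 of the 20358 measured genes, in 22 subfamilies, and the rule itself uses symbols and no measured value. A further 7 genes of these families (Cyp2a4, Cyp2a5, Cyp2c40, Cyp2c69, Cyp3a41a, Cyp3a41b and Cyp4a29) were only in probe sets that carry several gene symbols, and were therefore not among the members.

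Liver, fat and skeletal muscle of 3 MKR and 3 healthy wild-type (WT) mice were each measured on whole-transcript expression arrays (18 Affymetrix Mouse Gene chips), and each mouse gave 1 array per tissue. All 6 mice were male, of the FVB/N background and 10 weeks old, had free access to chow and were killed with CO2. MKR mice carry a transgene for a mutated, dominant negative IGF-1 receptor under the muscle creatine kinase promoter, which is active in skeletal muscle, and become diabetic. The study's methods describe over-expression of the receptor in skeletal muscle, and the labels do not say where the transgene is expressed. The fat depot and the muscle sampled are not given in the sources used here. All values below are log2 intensities of a gene, the mean over its probe sets, and a fold is 2 to the power of a difference between them. Levels were compared only between arrays for 1 gene and not between genes, because probes differ in brightness.

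In these enzymes electrons from NADPH pass through the reductase Por to the haem, and the first step of haem synthesis is made by Alas1. Members of families 1 to 3 are best known for the hepatic clearance of drugs and hormones, and are induced through the receptors Ahr (family 1), Nr1i3 or CAR (Cyp2b) and Nr1i2 or PXR (Cyp3a). Family 4 hydroxylates fatty acids and eicosanoids at their end carbon, and several members of Cyp2b, Cyp2d, Cyp3a and Cyp4a differ between male and female mouse liver.

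RefSeq promoter windows, from 250 bases before to 50 after a start site in build GRCm38.p6, were found for 56 of the 68 genes (63 windows). The windows of 6 genes named in the results are printed, and no expression result rests on them. Cyp2a22, Cyp2b10, Cyp2b9 and Cyp2b13 are members of related subfamilies on chromosome 7 that differed between genotypes or between liver arrays. Cyp2e1 and Cyp4b1 are the members that stood out in fat. Each window runs 5′ to 3′ on the strand of its gene. Capitals mark matches, on either strand, to the TATA box TATAAA, the nuclear receptor motif AGGTCA, the HNF1 motif GTTAAT, the C/EBP site TTGCNNAA or the STAT site TTCNNNGAA. The windows lie at chr7:26939337-26939636 (Cyp2a22, minus strand), chr7:25897408-25897707 (Cyp2b10, plus strand), chr7:26173159-26173458 (Cyp2b9, plus strand), chr7:26061245-26061544 (Cyp2b13, plus strand), chr7:140763569-140763868 (Cyp2e1, plus strand) and chr4:115647672-115647971 (Cyp4b1, minus strand).
Cyp2a22: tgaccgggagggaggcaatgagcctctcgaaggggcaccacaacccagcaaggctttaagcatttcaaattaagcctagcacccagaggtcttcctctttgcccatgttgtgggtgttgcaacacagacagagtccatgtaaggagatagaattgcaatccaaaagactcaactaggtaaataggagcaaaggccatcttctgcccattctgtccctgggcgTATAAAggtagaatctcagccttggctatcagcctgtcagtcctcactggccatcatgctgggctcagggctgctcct
Cyp2b10: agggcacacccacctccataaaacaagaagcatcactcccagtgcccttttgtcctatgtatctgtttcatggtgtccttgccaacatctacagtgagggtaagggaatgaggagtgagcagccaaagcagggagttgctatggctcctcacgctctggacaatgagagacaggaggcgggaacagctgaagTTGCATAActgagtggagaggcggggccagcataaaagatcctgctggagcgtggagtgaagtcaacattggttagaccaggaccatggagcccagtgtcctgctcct
Cyp2b9: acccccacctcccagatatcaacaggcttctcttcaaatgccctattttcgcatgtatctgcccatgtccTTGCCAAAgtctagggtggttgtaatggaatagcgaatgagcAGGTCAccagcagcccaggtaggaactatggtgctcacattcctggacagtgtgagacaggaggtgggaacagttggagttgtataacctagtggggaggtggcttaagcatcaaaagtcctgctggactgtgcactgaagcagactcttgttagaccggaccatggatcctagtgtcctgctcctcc
Cyp2b13: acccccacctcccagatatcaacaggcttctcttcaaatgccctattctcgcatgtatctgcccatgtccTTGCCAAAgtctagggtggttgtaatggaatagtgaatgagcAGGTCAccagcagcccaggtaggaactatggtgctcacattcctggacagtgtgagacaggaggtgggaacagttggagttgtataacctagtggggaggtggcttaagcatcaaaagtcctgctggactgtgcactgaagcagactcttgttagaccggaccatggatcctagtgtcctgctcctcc
Cyp2e1: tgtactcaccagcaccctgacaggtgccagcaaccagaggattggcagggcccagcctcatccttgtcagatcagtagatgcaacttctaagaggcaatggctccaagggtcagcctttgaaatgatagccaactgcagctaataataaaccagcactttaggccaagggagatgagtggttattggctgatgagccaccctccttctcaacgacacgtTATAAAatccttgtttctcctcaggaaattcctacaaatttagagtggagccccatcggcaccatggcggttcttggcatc
Cyp4b1: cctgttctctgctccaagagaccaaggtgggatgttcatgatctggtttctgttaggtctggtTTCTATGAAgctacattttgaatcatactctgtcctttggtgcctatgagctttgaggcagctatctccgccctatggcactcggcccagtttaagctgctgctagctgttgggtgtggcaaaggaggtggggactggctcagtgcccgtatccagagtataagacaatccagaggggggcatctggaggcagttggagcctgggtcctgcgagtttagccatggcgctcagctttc
The windows of Cyp2b9 and Cyp2b13 were identical at 298 of 300 bases and differed by T48C and C104T, written as the Cyp2b9 base, the position from the 5′ end of the window and the Cyp2b13 base. The Cyp2b10 window was 71.7% identical to either of them over 311 aligned columns, and held a C/EBP match but no AGGTCA, whereas Cyp2b9 and Cyp2b13 each held both. Cyp2a22 held a TATAAA at bases -28 to -23 from the start, Cyp2e1 one at -31 to -26, and Cyp4b1 held a STAT match. TATAAA was in 23 of the 63 member windows (36.5%), against 13.6% of all 32851 windows of this length. The share was 45.5% in the 44 windows of members that were higher in WT liver than in both other tissues, and 15.8% in the 19 windows of the other members. AGGTCA was in 27% of member windows against 16.3% of all, TTGCNNAA in 22.2% against 10.8%, GTTAAT in 7.94% against 7.1% and TTCNNNGAA in 6.35% against 8.3%. Windows and not genes were counted, and 5 members had several. Those of Cyp4f14 and Cyp3a25 include overlapping windows, and each of them held TTGCNNAA. These matches describe letters in a window and were tested for nothing further.

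Most members stood far higher in liver than in fat or muscle. In WT mice 49 of 68 were higher in liver than in fat at an adjusted p under 0.05 in limma, against 16.5% of all genes, and 51 were higher in liver than in muscle, against 18.9% of all genes. The members in both counts were 48, and 31 of these did not rise above background in WT fat and WT muscle. Among the 31, Cyp2c65, Cyp2d34, Cyp2g1 and Cyp3a16 did not rise above it in WT liver either. The median member was 2.08 higher in liver than in fat and 2.74 higher than in muscle, on the log2 scale, against 0.01 over all genes in both comparisons. Background was taken as the 95th percentile of 1169 olfactory and vomeronasal receptor genes on each array. In all 6 groups 14 members stayed at or below it: Cyp1a1, Cyp2ab1, Cyp2b19, Cyp2c65, Cyp2d34, Cyp2j11, Cyp2j12, Cyp2s1, Cyp2t4, Cyp2w1, Cyp3a16, Cyp4f18, Cyp4f39 and Cyp4x1. Cyp2d12 was higher in liver than in fat only, Cyp2b19, Cyp2c66 and Cyp2e1 were higher than in muscle only, and 16 members were in neither count. The difference from fat was over 4 for 24 members and the difference from muscle over 4 for 26. Where a gene was near background in fat or muscle, its difference is a fitted value against the floor of its own probes, and such differences were not ranked between genes. For these a bound was set by raising each dim array to its background level. In these whole tissues fewer cells of a type and less RNA per cell cannot be told apart.

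**Figure D1:**
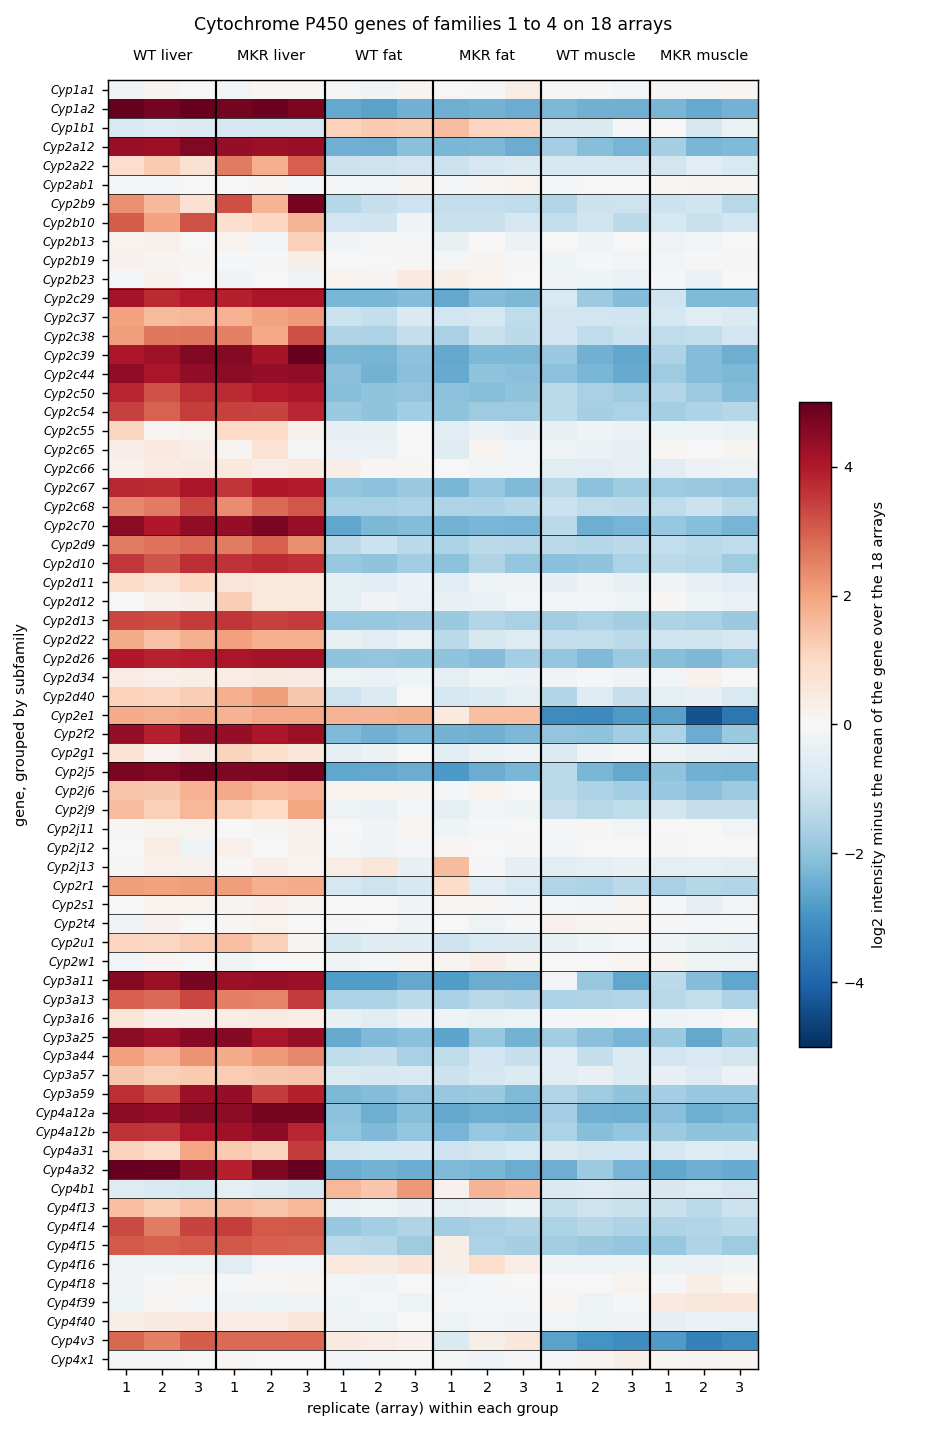
Log2 intensity of each of the 68 genes (rows, by subfamily) on each of the 18 arrays (columns, 3 per group), minus the mean of that gene over all 18 arrays, so that colours compare arrays and not genes. Red marks arrays above the gene's mean; the 6 liver columns are red in most rows, with Cyp1b1, Cyp4b1 and Cyp4f16 as rows that are red in fat.

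In family 1, Cyp1a2, the hepatic enzyme that oxidises caffeine and arylamines, was at 11.85, 11.64 and 11.88 on the WT liver arrays and at 11.67, 11.77 and 11.57 on the MKR liver arrays. On the 12 fat and muscle arrays it lay between 4.19 and 4.63. The WT liver minus fat difference was 7.48 (SE 0.10, adjusted p = 2.0e-17, limma), and at least 72.7-fold by the bound. Its inducible relative Cyp1a1 was near background in all 6 groups, and Cyp1b1 had the opposite tissue pattern, described with fat below.

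Both Cyp2a members were higher in WT liver than in both other tissues. Cyp2a12, a steroid hydroxylase, was at 11.40 to 11.75 on the 6 liver arrays and at 4.65 to 5.47 on the others. Cyp2b was mixed: 2 of its 5 members were higher in WT liver than in fat, Cyp2b10 by 3.46 (SE 0.28) and Cyp2b9 by 2.76 (SE 0.51), while Cyp2b19, a gene of the epidermis, Cyp2b13 and Cyp2b23 did not pass. Of the 13 Cyp2c members, all on chromosome 19, 12 were higher in WT liver than in fat and 13 higher than in muscle, with a median difference of 5.14 from fat. Cyp2c65, in both counts, was near background in liver as well. Cyp2c70, which makes the muricholic acids of mouse bile, was 6.66 higher in WT liver than in fat (SE 0.23, adjusted p = 4.0e-13, limma), at least 66.3-fold by the bound. It lay between 11.35 and 12.04 on the liver arrays and between 4.75 and 5.99 on the others. Cyp2c66 was the Cyp2c member closest between liver and fat (0.18, SE 0.10, adjusted p = 0.199).

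All 9 Cyp2d members, clustered on chromosome 15, were higher in WT liver than in fat, and 8 of them higher than in muscle. Of these Cyp2d34 and Cyp2d12 were near background in WT liver as well. Cyp2d26 was 5.94 higher than in fat (SE 0.12, adjusted p = 4.0e-16, limma), at least 33.4-fold by the bound, and was at 10.60 to 10.91 in liver and at 4.49 to 5.03 elsewhere. Cyp2d22, often named the closest mouse counterpart of human CYP2D6, was well above background in all 3 tissues, at 10.00 to 10.39 in WT liver, 7.98 to 8.20 in WT fat and 7.24 to 7.33 in WT muscle. The 3 WT tissue groups of Cyp2d22 did not overlap, and each tissue pair passed the threshold (adjusted p = 7.9e-09, 6.0e-11 and 3.8e-04 for liver against fat, liver against muscle and fat against muscle).

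Among the subfamilies with 1 member in family 2, Cyp2f2, known for the bioactivation of naphthalene, was 6.52 higher in WT liver than in fat (SE 0.19). Cyp2r1, a vitamin D 25-hydroxylase, was 2.97 higher (SE 0.29) and Cyp2u1, a fatty acid hydroxylase, 1.80 higher (SE 0.23). Cyp2g1, a gene of the olfactory mucosa, was 0.67 higher (SE 0.18, adjusted p = 0.00716, limma) but was near background in WT liver, at 4.93 to 5.41. Cyp2ab1, Cyp2s1, Cyp2t4 and Cyp2w1 were near background in all groups. In Cyp2j, the arachidonic acid epoxygenase Cyp2j5 was at 11.75 to 11.91 on all 6 liver arrays and at 4.25 to 5.81 elsewhere, whereas Cyp2j11 and Cyp2j12 were near background. Of the 6 Cyp2j members 3 (Cyp2j5, Cyp2j6 and Cyp2j9) were higher in WT liver than in fat, by 7.28, 1.32 and 1.67.

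All 7 Cyp3a members were higher in WT liver than in both other tissues, but Cyp3a16 was near background in liver as well. Cyp3a11, the main PXR-inducible drug-metabolising enzyme of mouse liver, was at 12.22, 11.95 and 12.39 in WT liver and at 4.83, 4.84 and 5.06 in WT fat (difference 7.27, SE 0.43, adjusted p = 6.6e-10, limma). Its WT muscle arrays were at 7.49, 5.73 and 5.02, and this spread was the largest of any member in that group (SD 1.27). The same order held on these arrays for a list of 9 liver markers such as Alb, whose mean level was 6.48, 5.71 and 5.11. In the MKR muscle arrays Cyp3a11 was at 6.33, 5.44 and 5.04, with the liver list at 6.15, 5.14 and 5.31. Cyp2c29 (6.64, 5.58 and 5.25 in WT muscle) and Cyp2j5 (5.81, 4.80 and 4.54) were also highest on WT muscle array 1. The part of the liver transcripts in these muscle values was not tested.

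In family 4, all 4 Cyp4a members were higher in WT liver than in both other tissues. Cyp4a12a, the male-predominant enzyme that forms the vasoactive eicosanoid 20-HETE, was at 11.07 to 11.25 in WT liver and 11.14 to 11.47 in MKR liver, and at 4.11 to 4.96 elsewhere. Cyp4a12a was at least 47.0-fold and Cyp4a32 at least 34.6-fold higher in WT liver than in fat by the bound, as both were near background in fat. Of the 7 Cyp4f members, 4 were higher in WT liver than in fat, among them Cyp4f14, a leukotriene B4 hydroxylase (4.79, SE 0.17), and 1 was lower. Cyp4v3, counterpart of the human retinal dystrophy gene CYP4V2, was graded, at 11.06 to 11.55 in WT liver, 8.77 to 8.99 in WT fat and 5.44 to 5.87 in WT muscle.

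**Figure D2:**
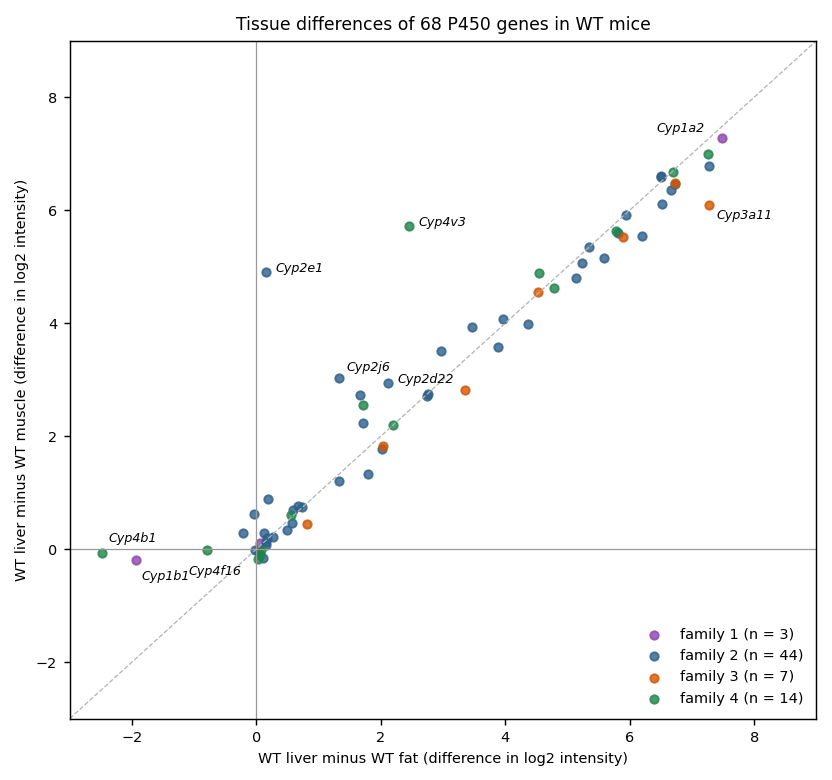
WT liver minus WT fat (horizontal axis) against WT liver minus WT muscle (vertical axis), in log2 intensity, with 1 point per gene, coloured by family, and the dashed line at equal differences. Both axes share the WT liver arrays; Cyp2e1 (0.15 and 4.91) and Cyp4v3 (2.45 and 5.72) lie above the line, and Cyp4b1, Cyp1b1 and Cyp4f16 lie left of 0.

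Members that were higher in fat than in liver were few, and their share was below that of all genes. Of the 68 members 3 were lower in liver than in fat of WT mice (Cyp4b1, Cyp1b1 and Cyp4f16), a direction called for 19% of all genes. In WT mice 11 members, those 3 among them, were higher in fat than in muscle, against 19.5% of all genes, and 4 were lower, against 18.3%. No member was lower in liver than in muscle at this threshold, against 21.5% of all genes. In the same comparison, limma without adjustment called 0 members lower at a p under 0.05.

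Cyp2e1, the ethanol- and acetone-oxidising enzyme, was about as bright in fat as in liver. It was at 12.04, 11.99 and 12.06 in WT liver, at 11.86, 11.86 and 11.93 in WT fat and at 7.02, 7.0 and 7.35 in WT muscle. The liver arrays lay above the fat arrays without overlap, but the difference of 0.15 (SE 0.31) did not pass the test (adjusted p = 0.765, limma), which uses 1 spread per gene over all 6 groups (SD 0.04 in WT liver and WT fat, 0.59 in MKR fat and 0.82 in MKR muscle). Fat was 4.76 above muscle (SE 0.31, adjusted p = 2.9e-09), a fold of 27.1.

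Cyp4b1, which activates the lung toxin 4-ipomeanol, was at 8.19, 7.89 and 8.71 in WT fat, against 5.66 to 5.89 in WT liver and 5.81 to 5.92 in WT muscle. The difference, liver minus fat, was -2.48 (SE 0.28, adjusted p = 2.2e-06, limma), a fold of 5.59. Cyp1b1, an oestrogen hydroxylase found mainly outside the liver, was at 6.82, 6.97 and 6.90 in WT fat and at 4.88, 5.01 and 4.98 in WT liver (at least 2.54-fold higher in fat, adjusted p = 5.3e-07). Cyp4f16 was at 6.09, 6.0 and 6.18 in WT fat and at 5.28, 5.33 and 5.28 in WT liver (at least 1.45-fold higher in fat, adjusted p = 2.3e-04). Cyp1b1 and Cyp4f16 were near background in liver, so that their folds are bounds. In each of the 3 genes no fat array overlapped a liver array, in either genotype.

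Among the members that were higher in liver than in fat, Cyp4v3, Cyp2j6, Cyp2j9, Cyp2d22 and Cyp4f13 were also higher in WT fat than in WT muscle, by 3.27, 1.71, 1.06, 0.82 and 0.84. Cyp2c66 (0.70) and Cyp2b23 (0.51) were the other 2 of the 11 besides Cyp2e1. The 4 members lower in fat than in muscle were Cyp3a11 (-1.17, SE 0.43, adjusted p = 0.0408), Cyp3a44 (-0.54), Cyp3a16 (-0.38) and Cyp2t4 (-0.26). Of these Cyp3a16, Cyp3a44 and Cyp2t4 were near background in both tissues. Without WT muscle array 1, MKR muscle array 1 and MKR fat array 1, which carried the most transcripts of another tissue, Cyp3a16 kept its call (adjusted p = 0.0163), and Cyp3a11 (difference -0.47, adjusted p = 0.059), Cyp3a44 (-0.40, adjusted p = 0.12) and Cyp2t4 (-0.23, adjusted p = 0.138) lost theirs. WT muscle array 2 was kept there, with a liver list mean of 5.71 and Alb at 7.73, against 5.29 to 6.14 for Alb on the remaining muscle arrays.

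**Figure D3:**
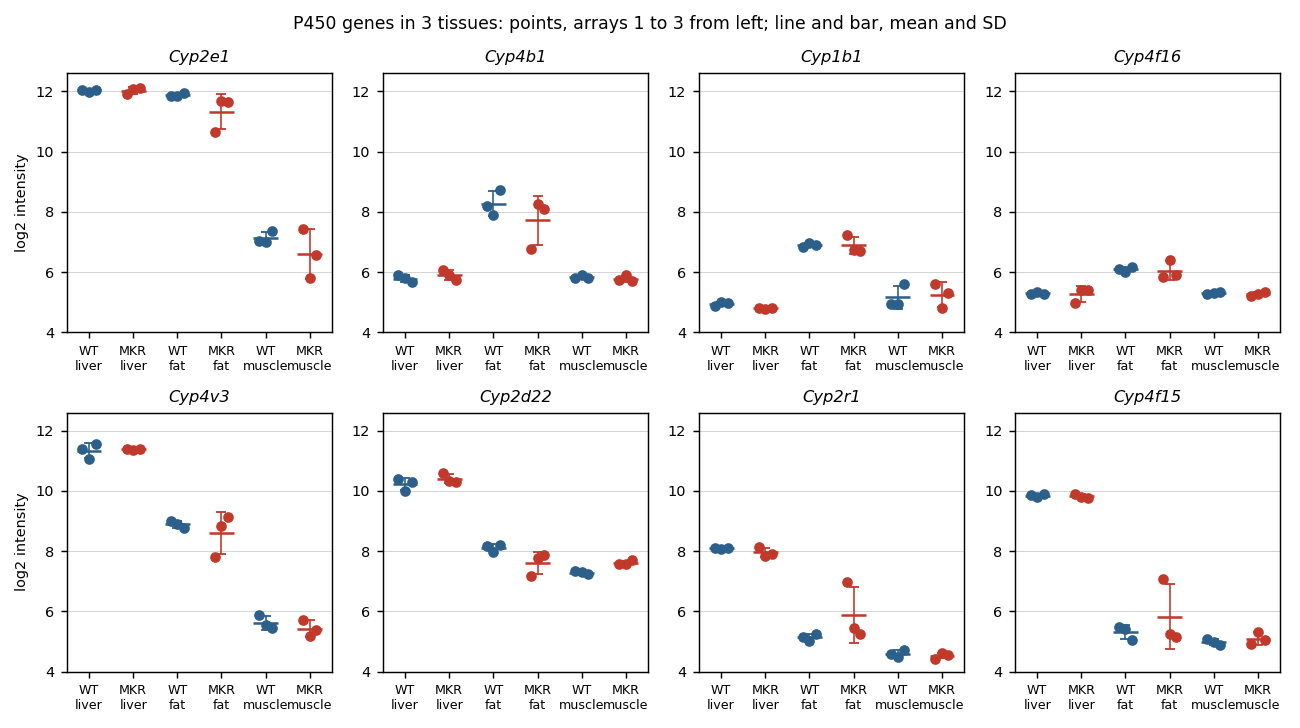
Log2 intensity of 8 genes by tissue and genotype, with arrays 1 to 3 of a group as points from left to right, the group mean as a line and the SD as a bar. Cyp2e1 lies near 12 in liver and WT fat, Cyp4b1 and Cyp1b1 are highest in fat, and MKR fat array 1 stands apart in Cyp2r1 (6.96) and Cyp4f15 (7.09).

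The arrays carried the markers of their labelled tissues, with 9 of 9 liver markers and 6 of 6 measured fat markers on the right side between WT liver and WT fat, and 7 of 7 muscle markers lower in WT liver than in WT muscle. Igf1r, the receptor mutated in MKR mice, was at 8.32 to 8.53 in MKR muscle and at 6.14 to 6.75 in WT muscle, as a check of the labels. It was also at 9.07 on MKR fat array 1, above every muscle array, and at 6.07 to 6.97 on the other 5 fat arrays. MKR fat array 1 stood apart: 27 of 29 measured epididymis markers were highest there among the 6 fat arrays, their mean level was 9.76 against 4.89 to 5.07 on the other 5, and its fat markers were lowest (9.17 against 10.41 to 10.72). In liver, MKR array 3 had the highest mean of 9 measured female-biased genes outside the P450s (5.75 against 5.03 to 5.38) and the lowest of 10 male-biased genes (9.64 against 9.90 to 10.41). Of the 9 female-biased genes 5 were highest there. Acot3 was at 7.92 (4.99 to 5.94 on the other liver arrays), Fmo2 at 8.87 (6.43 to 8.49) and Cux2 at 5.84 (5.34 to 5.65). A1bg and Hao2 did not rise above background. Of the 10 male-biased genes 8 were lowest there.

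Between the genotypes few members differed. In liver 1 of 68 passed an adjusted p of 0.05 in limma, Cyp2a22, which rose in MKR mice, against 0.0344% of all genes (7 of 20358). At an unadjusted p under 0.05 there were 8 members, 6 higher and 2 lower, against 5% of all genes. The thresholds of the study's methods, an unadjusted p under 0.05 with a fold over 1.5, gave 5 members, 4 higher and 1 lower, against 0.707%. The median member differed by 0.07 between MKR and WT liver. The 3 MKR arrays lay on one side of the 3 WT arrays for 7 members, against 9.43% of all genes: Cyp2a22, Cyp2d12, Cyp2d40 and Cyp2d26 were higher and Cyp2b10, Cyp2d11 and Cyp1b1 lower in MKR. The smallest exact two-sided p that 3 arrays against 3 allow is 0.1.

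Cyp2a22, a little-studied Cyp2a gene, was at 7.44, 6.67 and 7.85 in MKR liver and at 5.72, 6.16 and 5.62 in WT liver, with no overlap. It was 1.49 higher in MKR liver (SE 0.22, adjusted p = 0.0122, limma), a fold of 2.80. The gene rests on 3 probe sets, and in each of them all MKR arrays lay above all WT arrays, by means of 0.87 to 1.98. In fat and muscle it was near background, at 3.78 to 4.28. The call was lost without WT liver array 1 (adjusted p = 0.0547) or WT liver array 3 (adjusted p = 0.0782), and with the 6 liver arrays fitted alone (adjusted p = 0.503). The main test pools 1 spread per gene over all 6 groups. For Cyp2a22 the SD was 0.60 in MKR liver and 0.29 in WT liver, against 0.01 to 0.17 in the fat and muscle groups.

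Cyp2b10, the classic CAR target that phenobarbital induces, was at 6.90, 7.13 and 7.78 in MKR liver and at 9.13, 8.09 and 9.28 in WT liver. The groups did not overlap, and the difference of -1.57 (SE 0.28) was a fold of 2.96 but missed the threshold (adjusted p = 0.0669, limma). Its mean was lower in MKR in 9 of 9 probe sets, and all MKR arrays lay below all WT arrays in 5 of them. It passed without MKR liver array 3 (-1.82, adjusted p = 0.0273) or WT liver array 2 (-1.94, adjusted p = 0.0141), and with the replicate number as a block (adjusted p = 0.044).

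The other Cyp2b members moved differently from array to array. Cyp2b9, a female-predominant gene of mouse liver, was at 8.97, 7.46 and 10.56 in MKR liver and at 8.03, 7.37 and 6.53 in WT liver. Its spread was the largest of all members in both liver groups (SD 1.55 and 0.75), the groups overlapped, and the difference of 1.69 (SE 0.51) did not pass (adjusted p = 0.581, limma). Cyp2b13, also female-predominant, was at 5.66 on MKR liver array 3 and at 4.36 to 4.76 on the other 5 liver arrays. It was near background on those 5 and only just above it on array 3, where background was 5.57. Cyp2b9 and Cyp2b13 were both highest on the array where the mean of the female-biased list was highest, with 5 of its 9 genes highest there. Without MKR liver array 3 the difference of Cyp2b9 was 0.90 (SE 0.39) and that of Cyp2b13 -0.12 (SE 0.14).

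MKR liver array 3 was the highest of the 6 liver arrays for 23 of the 68 members, and had the highest mean level (8.12). On it 4 members lay over 1 above the mean of the other 5 liver arrays: Cyp2b9, Cyp4a31, Cyp2a22 and Cyp2b13. Only 1, Cyp2u1, lay over 1 below that mean. Cyp4a31 was at 8.48 on MKR liver array 3, against 5.93 to 6.96 on the other 5, and Cyp2u1 was lowest there, at 5.95 against 6.83 to 7.31. Without the array the MKR difference of Cyp4a31 fell from 0.62 to -0.14. The male-predominant Cyp2d9 was also lowest on this array (8.67 against 8.94 to 9.32), but Cyp4a12a, also male-predominant, was not (11.47, the highest of the 6). Cyp2b13, Cyp4a31 and Cyp2d9, and Cyp2b9 and Cyp2u1 for their values on this array, were singled out after their values were seen, and the part of sex-biased regulation in this array was not tested.

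In the Cyp2d subfamily 7 of 9 members had a higher mean in MKR liver, with a median difference of 0.17. So had 11 of the 13 Cyp2c members, with a median of 0.12, against a median of -0.005 over all genes. WT liver array 2 was the lowest of the 6 liver arrays for 27 of the 68 members. Without it the median member differed by 0.022, against 0.066 with it. Cyp2d40 was at 8.59, 8.84 and 8.10 in MKR and at 7.92, 7.83 and 7.99 in WT liver, a difference of 0.60 (SE 0.25, adjusted p = 0.902, limma). Cyp2d12 was at 5.58, 4.89 and 4.87 against 4.35, 4.56 and 4.66, a difference of 0.59 (SE 0.16, adjusted p = 0.475), and was near background in WT liver. Without MKR liver array 1 its difference was 0.36 (adjusted p = 0.86), below the 1.5-fold threshold. The groups of both genes did not overlap, but the differences did not pass over all genes. Cyp2d26 differed by 0.21, Cyp2d11 by -0.34 and Cyp1b1, near background in liver, by -0.16.

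Between MKR and WT liver 0 of the 13 Cyp2c members passed and their differences lay between -0.12 and 0.37, and of the 7 Cyp3a members 0 passed, with differences between -0.23 and 0.17. The 2 Cyp1a members differed by -0.12 and 0.02, and the 4 Cyp4a members by -0.16 to 0.62. Cyp2e1 was at 11.90, 12.07 and 12.11 in MKR liver, and the WT arrays, at 11.99 to 12.06, lay within that range. Replicate spread in liver was close to that of other genes, with a median SD of 0.15 in MKR and 0.16 in WT against 0.14 and 0.15 over all genes.

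**Figure D4:**
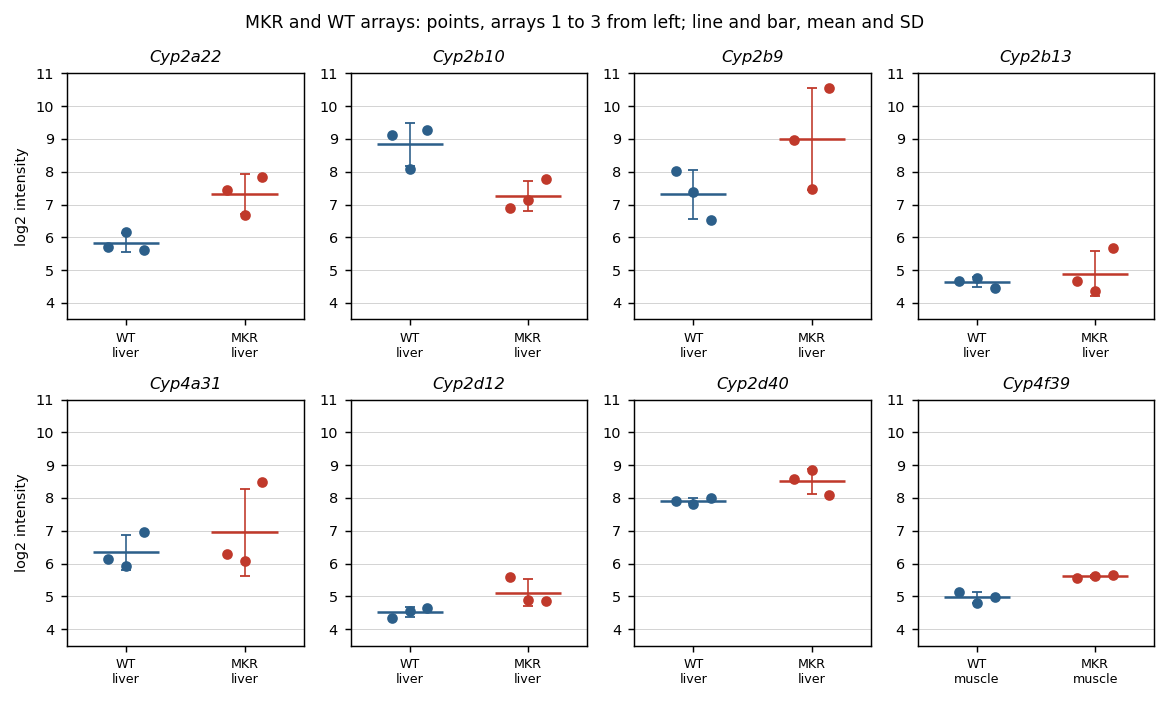
Log2 intensity on MKR and WT arrays of 7 genes in liver and of Cyp4f39 in muscle, with arrays 1 to 3 as points from left to right, the group mean as a line and the SD as a bar. Cyp2a22 is higher and Cyp2b10 lower in MKR liver without overlap, and MKR liver array 3 is the highest point of Cyp2b9, Cyp2b13 and Cyp4a31.

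In fat 0 of 68 members passed in limma, against 0.0393% of all genes. At an unadjusted p under 0.05 there were 4 members, against 7.78% of all genes, and the thresholds of the methods gave 1, Cyp2r1, against 1.66%. The groups did not overlap for 6 members, against 11.7% of all genes. Cyp2r1 (0.76 higher, near background in WT fat) and Cyp2w1 (0.24 higher, near background) lay above, and Cyp2e1 (-0.55), Cyp2d22 (-0.50), Cyp4a12a (-0.30, near background) and Cyp2c66 (-0.28) lay below.

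Several of these values rested on MKR fat array 1, the array with epididymis transcripts. Cyp2r1 was at 6.96 there and at 5.46 and 5.26 on the other MKR fat arrays, against 5.15, 5.01 and 5.25 in WT fat, and without that array its difference was 0.23 (SE 0.12). Cyp4f15 (7.09 against 5.04 to 5.48 on the other 5) and Cyp2j13 (6.24 against 4.25 to 5.28) were also highest on it. Cyp4b1 was lowest on it, at 6.78 against 7.89 to 8.71, as was Cyp4v3, at 7.81 against 8.77 to 9.12. The MKR difference of Cyp4b1 was -0.55 with the array and -0.08 without it. Cyp2e1 was at 10.65, 11.68 and 11.66 in MKR fat, so that the other 2 arrays were also below every WT fat array (difference without array 1 -0.21, SE 0.28). Cyp2d22 was at 7.19, 7.76 and 7.88 in MKR against 8.16, 7.98 and 8.20 in WT fat, and differed by -0.29 without array 1 (adjusted p = 0.434). The fits without MKR fat array 1 kept WT fat arrays 1 and 2, where the epithelial gene Epcam was at 6.99 and 6.85. Epcam was at 8.60 on MKR fat array 1 and at 4.71 to 4.94 on the remaining fat arrays. Cyp2j13 was at 5.05 and 5.28 on WT fat arrays 1 and 2 and at 4.29 on WT fat array 3. Cyp4f15, Cyp2j13, Cyp4v3 and Epcam were singled out here after their values were seen. The part of epididymal or other epithelial tissue in these values was not tested.

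In muscle 1 of 68 members passed in limma, Cyp4f39, against 0.201% of all genes (41 of 20358). At an unadjusted p under 0.05 there were 4 members, against 10.5% of all genes, and the thresholds of the methods gave 1, against 1.28%. Cyp4f39, the mouse counterpart of a human skin gene for very long chain fatty acid hydroxylation, was at 5.55, 5.62 and 5.66 in MKR muscle and at 5.14, 4.81 and 4.98 in WT muscle. It was 0.63 higher in MKR (SE 0.10, adjusted p = 0.0102, limma), and higher in the mean of 12 of its 14 probe sets. The mean over its probe sets did not exceed the background of any MKR muscle array (5.65 to 5.73), but 4 of the 14 probe sets did on all 3 MKR arrays and 2 on all 3 WT arrays. The call was lost without MKR muscle array 2 (adjusted p = 0.0556), MKR muscle array 3 (adjusted p = 0.0663) or WT muscle array 2 (adjusted p = 0.0564).

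The muscle groups did not overlap for 8 members, against 21.9% of all genes. Besides Cyp4f39, Cyp2c65 (0.37), Cyp2d22 (0.32), Cyp2c37 (0.26) and Cyp2ab1 (0.15) were higher in MKR, and Cyp2j6 (-0.39, SE 0.13, adjusted p = 0.284), Cyp2t4 (-0.22) and Cyp4f40 (-0.15) lower. Like Cyp4f39, the genes Cyp2c65, Cyp2ab1, Cyp2t4 and Cyp4f40 were near background in both muscle groups, and Cyp2j6 was so in MKR muscle. Cyp2d22 was at 7.56, 7.56 and 7.70 in MKR against 7.33, 7.30 and 7.24 in WT muscle, the opposite direction to fat. The difference of its MKR effect between fat and muscle was -0.82 (SE 0.21) and did not pass (adjusted p = 0.289, limma). Cyp2e1 was at 7.44, 5.80 and 6.57 in MKR and at 7.02, 7.0 and 7.35 in WT muscle, with overlap, a difference of -0.52 (SE 0.31). Without the 3 arrays named above it was -0.99 (SE 0.19, adjusted p = 0.0325). Fat markers varied between the same arrays: Adipoq, the adiponectin gene, was at 6.69, 5.33 and 5.97 in MKR muscle and at 5.50, 6.14 and 6.18 in WT muscle, and the mean of the fat list was at 6.29, 5.57 and 5.83 against 5.47, 5.78 and 5.93. The MKR arrays had the same order in Cyp2e1, Adipoq and the fat list, and the part of fat in the Cyp2e1 difference was not tested.

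**Figure D5:**
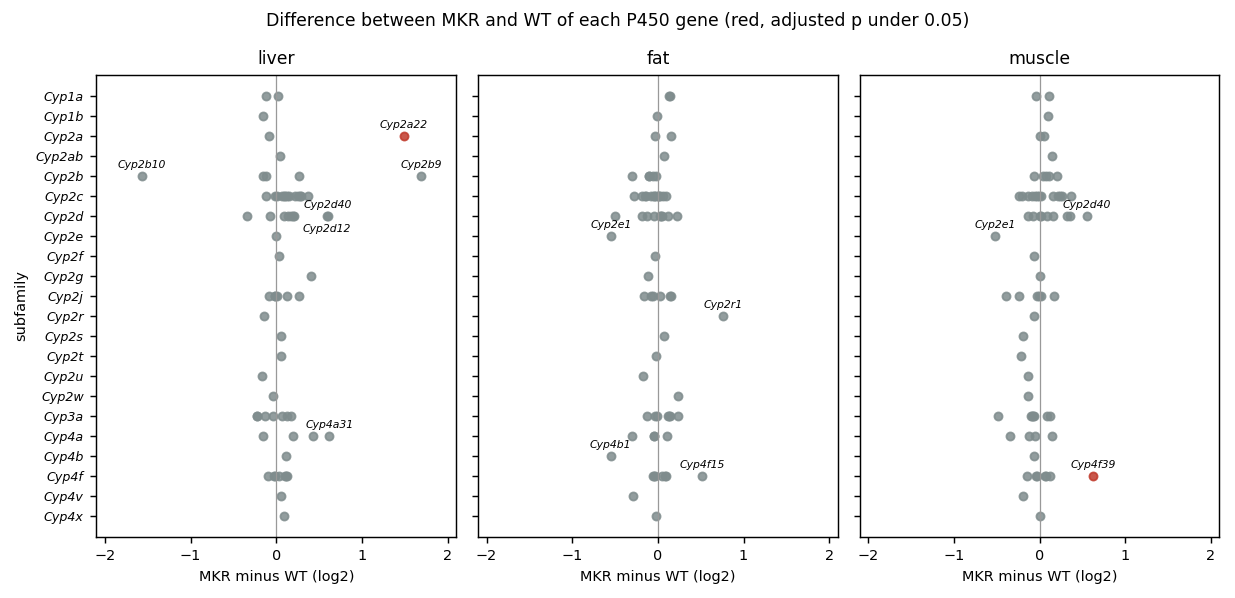
MKR minus WT in log2 intensity (horizontal axis) for each gene, by subfamily (vertical axis), in liver, fat and muscle, with genes at an adjusted p under 0.05 in red and genes beyond 0.5 named. Cyp2a22 in liver (1.49) and Cyp4f39 in muscle (0.63) are red, and most points lie within 0.5 of 0.

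The MKR effect was also compared between tissues, in contrasts of the same model. None of the 68 members passed for liver against fat, where 0 of 20358 genes passed (0% of all genes), for liver against muscle (0.0737%) or for fat against muscle (0.103%). At an unadjusted p under 0.05 in limma there were 9, 7 and 4 members, against 6%, 10.3% and 8.03% of all genes. For Cyp2a22 the effect in liver minus that in fat was 1.33 (SE 0.30, adjusted p = 0.37) and minus that in muscle 1.44 (SE 0.30, adjusted p = 0.123). Without MKR liver array 2 both passed (1.66, adjusted p = 0.0191, and 1.76, adjusted p = 0.00361), but the gene was near background in fat and muscle. Cyp4f39 had an effect in liver minus muscle of -0.74 (SE 0.14, adjusted p = 0.0788).

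Genes that serve the P450s were read from lists of regulators, electron carriers and haem enzymes. Of 19 measured regulators, 6 electron carriers and 10 haem genes, 0 passed in any tissue between MKR and WT in limma, and the list medians in liver were -0.04, 0.09 and 0.09, against -0.005 over all genes. At an unadjusted p under 0.05 in liver there were 2 regulators (Nr1i2 and Bcl6), 0 electron carriers and 0 haem genes, against 5% of all genes. Bcl6, a repressor of female-biased genes in male mouse liver, was at 8.37, 8.12 and 8.07 in MKR and at 7.53, 6.94 and 8.09 in WT liver, with overlap (0.67, SE 0.30, adjusted p = 0.964), and is named after its value was seen. Nr1i2, the PXR gene, was at 7.86, 7.99 and 7.82 in MKR liver and at 8.10, 8.19 and 8.12 in WT liver, without overlap (-0.25, SE 0.08, adjusted p = 0.592). Nr1i3, the CAR gene, was at 9.19, 9.11 and 9.44 against 9.29, 9.46 and 9.12, with overlap (-0.04, SE 0.12). Ahr, Ppara and Hnf4a, a master regulator of hepatocytes, differed in liver by -0.05, 0.01 and -0.24, and none passed. Hnf4a, at 9.58, 9.58 and 9.73 in MKR and at 9.91, 9.81 and 9.88 in WT liver, did not overlap either.

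Por was at 9.29, 9.58 and 9.83 in MKR liver and at 9.81, 9.86 and 9.84 in WT liver, so that 2 MKR arrays lay below and 1 within the WT range (-0.27, SE 0.27). Alas1 was at 6.77, 7.82 and 8.10 in MKR fat and at 8.33, 8.09 and 8.46 in WT fat, lowest on the array with epididymis transcripts (-0.73, SE 0.26, adjusted p = 0.535). In liver Alas1 differed by -0.30 (SE 0.26) and in muscle by -0.47 (SE 0.26). Of the 11 pericentral and 10 measured periportal liver genes outside the P450s 0 passed in liver, with medians of 0.05 and -0.05. Of the 10 male-biased and 9 female-biased genes 0 passed, with medians of -0.14 and 0.06. Among macrophage, endothelial, stellate and fibroblast, bile duct and blood cell markers, 0 passed in any tissue. Their means in liver nevertheless differed by genotype without overlap for 3 lists. The mean of the 10 macrophage markers was at 6.73, 6.73 and 6.58 in MKR and at 6.96, 6.97 and 6.85 in WT liver, with all 10 lower in MKR. This was not particular to liver: in muscle the mean was at 5.69, 5.56 and 5.54 in MKR and at 5.84, 5.96 and 6.20 in WT, again with all 10 lower. The mean of the 8 endothelial markers was at 6.43, 6.51 and 6.43 against 6.71, 6.61 and 6.59, with all 8 lower. The mean of the 6 bile duct markers was at 5.59, 5.55 and 5.51 against 5.41, 5.43 and 5.36, with 5 higher. Of these Krt19, Krt7, Epcam and Cftr did not rise above background on any liver array. Spp1 and Sox9 did, and they moved in opposite directions. The mean of Spp1 was 8.01 in MKR and 7.41 in WT liver, and that of Sox9 was 5.71 in MKR and 6.03 in WT liver. The bile duct markers above background thus did not shift together. The part of these cell types in the liver differences of Cyp2a22 and Cyp2b10 was not tested.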

How the data were processed

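RNA from liver, fat and skeletal muscle of 3 MKR and 3 WT mice was measured on Affymetrix Mouse Gene 1.0 ST chips, 1 per tissue and mouse. Per the labels and the study's methods, the authors normalised the arrays by quantile RMA in Partek 6.3 and deposited log2 values for 241419 probe sets. The deposited values span 1.52 to 3.82, and taken back once, by raising 2 to them, span 2.87 to 14.15, the usual range of log2 intensity. They were therefore taken as log2 values whose logarithm had been taken again, and the values taken back once were used throughout. This is inferred from the values.

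The 212138 probe sets with 1 gene symbol were averaged per gene (20358 genes, median 8 probe sets), and the 4672 with several symbols and 24609 with none were left out. The platform annotation can be old, and of its 20422 symbols 2742 were updated through RefSeq synonyms. The 68 members rest on 1 to 14 probe sets, with 4 members under 4, and 11 also have shared probe sets that were left out. No detection calls were used here, so background was set from receptor genes of the nose. Each array's precision is limited by the number of arrays, 3 per group. The tests were limma 3.58.1 (R 4.3.3) fits of 6 group means over 18 arrays, with p-values adjusted by Benjamini-Hochberg within a comparison, over the whole gene table, and a threshold of 0.05. The code was tested on simulated data. The methods name a two-way ANOVA, and the sources used here do not say whether it held an interaction term, which the 6 group means include.

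Genes are named if they passed a genotype or interaction test, if they were among the 5 largest rises or falls in a tissue with groups apart, if they led their subfamily between tissues, or if they were higher in fat than in liver, with Por, Alas1 and 5 regulators. The members and lists were chosen with earlier results of these data known. Equal replicate numbers in the 3 tissues of a genotype are the same mouse (correlations of deviations from the group means, -0.119 to 0.203). P-values between genotypes measure the spread between arrays within groups, pooled per gene over the 6 groups. Each mouse thus enters this spread with 3 tissues. Alternatives were the summary over probe sets, the scale, quantile normalisation within tissues, the fit of the compared tissues alone, array weights, no moderation, a filter on dim genes, the methods' thresholds, blocks, and leaving out arrays. Python 3.11.15, pandas 2.3.3 and matplotlib 3.10.9 were used. RefSeq promoter windows were matched by symbol.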

Additional observations from a re-analysis of the deposited data

How the results depend on the processing

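Under all alternatives run, members higher in WT liver than in fat (46 to 50) or in muscle (47 to 52) kept within 1.5 times their counts. So did those higher in fat than in muscle (10 to 14) and lower in liver than in fat. Signs were followed only for members with genotype groups apart, for subfamily leaders of liver over fat, and for those higher in fat than in liver. Of these differences none past the threshold reversed. Differences that missed it changed sign without 1 array: without MKR liver array 3, Cyp4a31 (0.62 to -0.14), Cyp2b13 (0.26 to -0.12) and Cyp2u1 (-0.17 to 0.24), and without MKR fat array 1, Cyp4f15 (0.52 to -0.11), Cyp2j13 (0.15 to -0.46) and Cyp4v3 (-0.29 to 0.10). The fits without MKR fat array 1 kept WT fat arrays 1 and 2, where Epcam was also high. The count in MKR liver, 1, became 5 at the methods' thresholds, 2 with the replicate number as a block, with quantile normalisation within tissues or with array weights, and 0 with the tissue fitted alone, the median of probe sets or no moderation, and lay between 0 and 2 when 1 array was left out. In MKR fat the count of 0 became 1 at the methods' thresholds and 1 with array weights (Cyp2d13, where 3.8% of all genes passed), and stayed between 0 and 0 when 1 array was left out. In MKR muscle the count of 1 became 0 with the median of probe sets or without dim genes and 2 without the 3 arrays that carried the most transcripts of another tissue, a choice made after seeing the data, and lay between 0 and 1 when 1 array was left out. The count lower in liver than in muscle, 0, became 1 in MKR mice and 1 without those 3 arrays, and lay between 0 and 1 when 1 array was left out. The count lower in fat than in muscle, 4, became 1 at the methods' thresholds, 7 with the median of probe sets, 9 on the deposited scale, 11 with array weights and 2 without those 3 arrays, and lay between 1 and 5 when 1 array was left out. The counts of members whose MKR effect differed between tissues, each 0, became 5 for liver and fat, 6 for liver and muscle and 1 for fat and muscle at the methods' thresholds (2.31%, 3.1% and 2.78% of all genes), and 2 for liver and muscle and 2 for fat and muscle with array weights (0.255% and 2.07% of all genes). They lay between 0 and 1, between 0 and 1 and between 0 and 0 when 1 array was left out. The cause of these changes was not tested. Cyp2a22 in liver lost its call in 5 alternatives (median of probe sets 1.94, adjusted p = 0.254; no moderation, adjusted p = 0.0806), Cyp2b10 gained one in 7, and Cyp4f39 in muscle lost its call in 4, among them the median of probe sets (1.02, adjusted p = 0.0653). Between genotypes equal replicate numbers are different mice that share only a number (correlations of deviations -0.312 to 0.292), and the replicate block added Cyp2b10 to the calls in liver (adjusted p = 0.044). Across tissues the mouse as a block (consensus correlation 0.021) moved no count by over 1.5 times. Probe brightness over background limits the 14 members near background in all groups, for which no difference between groups can be read as absent.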

Other observations

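The P450 genes that were left out because their probe sets carry several symbols had levels of their own. The 9 probe sets shared by Cyp2a4 and Cyp2a5, steroid and coumarin hydroxylases, were at 10.19, 9.60 and 10.38 in MKR liver and at 10.78, 10.01 and 10.07 in WT liver, with overlap. The 13 probe sets shared by Cyp3a41a and Cyp3a41b, female-predominant in mouse liver, were at 6.51, 7.36 and 7.32 in MKR and at 7.22, 7.11 and 7.34 in WT liver. MKR liver array 3, where Cyp2b9 and Cyp2b13 were highest, was thus within the range of the other arrays for the Cyp3a41 probe sets. The 1 probe set shared by Cyp4a31 and Cyp4a32 was at 11.61, 12.44 and 12.75 in MKR and at 12.86, 12.75 and 12.11 in WT liver. These values were not tested.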
